A study of Mus musculus with 6 samples.

Results

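The ubiquitin-conjugating enzymes, named Ube2 followed by a letter, were examined in newborn cortex of wild-type mice and of mice labelled as Tle4 null. Members were taken by gene symbol alone, as every gene of the deposited table whose name starts with Ube2 and a letter, which gave 38 of 23621 genes. In the GENCODE M21 annotation of GRCm38, 35 are protein-coding and 3 are pseudogenes (Ube2n-ps1, Ube2nl and Ube2d-ps). Ube2cbp came in through its name, although it encodes a protein that binds an E2 and is not itself one of the classical conjugating enzymes. Of the 38, 35 passed the filter on low counts and were tested. The 3 that did not, Ube2d2b, Ube2nl and Ube2u, had 0 to 6 counts in each library.

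The study sequenced 3 cortex RNA libraries of wild-type mice and 3 of Tle4-/- null littermates at postnatal day 0, on a mixed C57BL/6J, 129S6 and CD1 background. Tle4 encodes a Groucho co-repressor of transcription. The labels do not describe the allele, do not tie libraries to litters and do not say whether animals were pooled, so p-values set the genotypes against the spread between these libraries.

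Ubiquitin is attached to proteins in a relay: an E1 enzyme activates it, an E2 carries it on a catalytic cysteine, and an E3 ligase brings the E2 to the substrate. Which E2 takes part helps set which chain is built and hence whether the substrate goes to the proteasome or to signalling and repair. Some E2s carry the related proteins SUMO, NEDD8 or ISG15 instead. In neurons this system acts in axon growth and in the turnover of synaptic proteins, and loss of the E3 ligase Ube3a causes a neurodevelopmental disorder in humans.

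Libraries held 18617408 to 21632607 counts. Tle4 stood at 169 ± 27.8 CPM in wild-type cortex, against 81.0 ± 10.1 CPM in mutant cortex (SD, n = 3 each; log2 fold change -1.06, SE 0.14, edgeR adjusted p = 0.0377). Tle4 reads were thus lower in every library labelled null but not absent, at 1481 to 1664 counts, and which part of the gene the allele removes is not in the labels. All 6 markers of cortical excitatory neurons were present, at a summed 2166 to 2444 CPM in wild-type cortex, against 1939 to 2481 CPM in mutant cortex. All 3 mutants carried 66194 to 79080 counts of Xist against 11 to 37 in the wild types, so Xist level and genotype cannot be told apart. Counts of the Y-linked Ddx3y were 1463, 1891 and 2 across the wild types, so that replicate 3 was low for both genes, and 0 to 2 across the mutants. Meningeal markers were at a summed 9.73 CPM in wild-type replicate 1 and 153 to 428 CPM in the other libraries, and the choroid plexus transcript Ttr had 1789 counts in mutant replicate 3 and 1 to 5 elsewhere. The summed level of the striatal markers was 71.7 to 112 CPM in wild-type cortex, against 40.3 to 56.8 CPM in mutant cortex. The part of these differences in the values below was not tested.

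Ube2l3 was the 1 member of 35 that differed between the genotypes at an edgeR adjusted p under 0.05, and it was lower in the mutant. Over all 16274 genes tested, 0.111% passed that threshold in either direction and 0.0614% passed it with a lower level in the mutant and 0.0492% with a higher one, against 1 and 0 members. Ube2l3, also called UbcH7, passes ubiquitin only to E3s that take it onto a cysteine of their own, the HECT and RING-between-RING ligases. The family was singled out with this result known, so its call is a description of these libraries. The gene (ENSMUSG00000038965) lies on the minus strand of chromosome 16 from 17152013 to 17202649 (GRCm38).

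A coding exon of Ube2l3 is shown here because it holds the catalytic cysteine and because an exon of an antisense neighbour, Ydjc, covers all 187 of its bases. It spans chr16:17159990-17160176 on the minus strand of GRCm38, is written 5′ to 3′ from the GENCODE M21 transcript, and its capitals mark codon 86, the catalytic cysteine.
Ube2l3 exon: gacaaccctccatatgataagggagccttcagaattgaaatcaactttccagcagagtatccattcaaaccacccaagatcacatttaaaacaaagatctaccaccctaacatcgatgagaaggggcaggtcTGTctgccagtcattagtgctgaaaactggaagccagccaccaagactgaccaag
In all, 1670 exon bases of Ube2l3 are also exon of Ydjc on the opposite strand. Whether counting used the strand is not given in the sources used here, so reads of this stretch may have been given to either gene or to none.

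Ube2l3 had 796, 2118 and 966 counts in wild-type replicates 1 to 3 and 96, 78 and 85 in mutant replicates 1 to 3. Scaled for depth, these are 40.5, 95.1 and 51.9 CPM in wild-type pups, against 4.49, 4.08 and 4.43 CPM in mutant pups. The genotypes were far apart and did not overlap, the mutants were close to each other, and wild-type replicate 2 stood above the other wild types. The mean was 62.5 ± 28.8 CPM in wild-type cortex, against 4.33 ± 0.221 CPM in mutant cortex (SD, n = 3 each), a ratio of 0.0694 (log2 fold change -3.85, with an SE of 0.34 and an edgeR adjusted p of 0.0120). Only 10 of the 16274 genes tested had a larger change in either direction. The call was lost when any 1 mutant library was left out: the edgeR adjusted p was 0.150 without mutant replicate 1, 0.147 without replicate 2 and 0.135 without replicate 3, at log2 fold changes of -3.81 to -3.87.

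Ydjc, a predicted carbohydrate deacetylase, did not differ at the threshold. It had 701, 793 and 413 counts in wild-type pups, against 941, 641 and 646 in mutant pups, and the genotypes overlapped. Its means were 31.2 ± 7.76 and 37.1 ± 6.01 CPM (SD, n = 3 each; log2 fold change 0.25, SE 0.20, edgeR adjusted p = 0.9996). Of the reads given to either gene, Ube2l3 took 53.2% (95% exact binomial interval 50.6% to 55.7%), 72.8% (71.1% to 74.4%) and 70.1% (67.6% to 72.5%) in the wild types. In the mutants it took 9.26% (7.56% to 11.2%), 10.8% (8.67% to 13.4%) and 11.6% (9.39% to 14.2%), where intervals cover counting error only. The other gene overlapping Ube2l3, Gm15648, had 0 or 1 count in each library.

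Adding the counts of every overlapping gene to those of Ube2l3 gave 76.2, 131 and 74.1 CPM in wild-type pups, against 48.6, 37.6 and 38.2 CPM in mutant pups. The wild types were still above the mutants without overlap, at 93.7 ± 32.0 against 41.4 ± 6.16 CPM (SD, n = 3 each). The fold was smaller and did not pass the threshold (log2 fold change -1.18, SE 0.23, edgeR adjusted p = 0.351). Within 100000 bases of Ube2l3, 11 other genes were tested, and their log2 fold changes ran from -0.09 to 0.62. The highest of these was Ypel1, with 931, 2027 and 884 counts in wild-type pups, against 2035, 1749 and 1912 in mutant pups. It was the 1 neighbour of 11 at an edgeR unadjusted p under 0.05, against 3.45% of all genes tested.

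**Figure D1:**
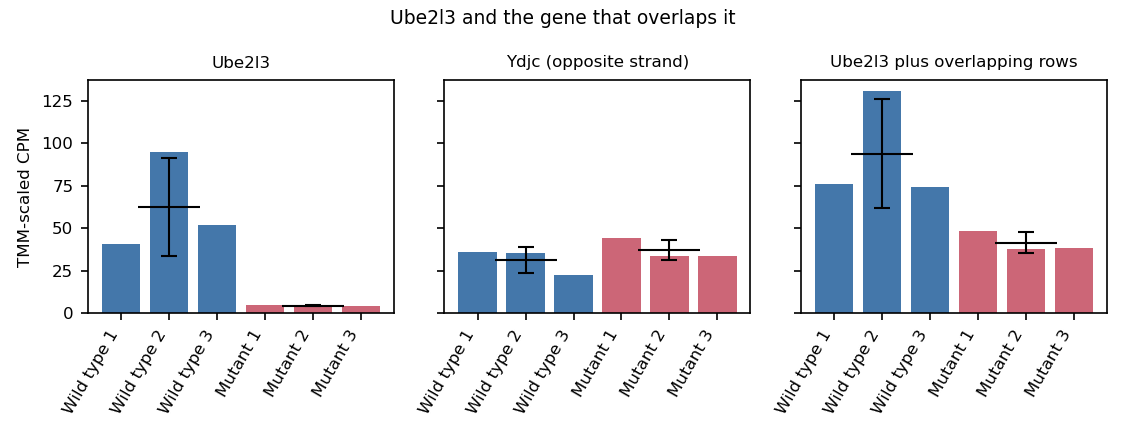
Depth-scaled level (CPM, y axis) in each library (x axis, blue wild type, red mutant) of Ube2l3, of Ydjc on the opposite strand, and of Ube2l3 with its overlapping genes added. Black marks are the mean and SD of 3 libraries; Ube2l3 is at 4.08 to 4.49 CPM in mutant pups and at 40.5 CPM or more in the wild types, while Ydjc overlaps between genotypes.

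The other broadly acting E2s, which serve many E3s, were close between the genotypes. The Ube2d genes are the workhorse partners of RING ligases. Ube2d3 stood at 253 ± 5.83 CPM in wild-type cortex, against 239 ± 14.7 CPM in mutant cortex (SD, n = 3 each; log2 fold change -0.08, SE 0.09). Ube2d2a stood at 179 ± 4.96 and 177 ± 15.2 CPM, with a log2 fold change of -0.02 (SE 0.09). Ube2d1 had 134, 137 and 136 CPM in wild-type pups, against 150, 143 and 140 CPM in mutant pups. All mutants were slightly above all wild types, but the difference was small (log2 fold change 0.09, SE 0.09, edgeR adjusted p = 0.9996).

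Of the Ube2e genes, E2s with an extended N-terminus, Ube2e1 gave a log2 fold change of 0.10 and Ube2e3 of -0.05. Ube2e2 had 980, 899 and 985 counts in wild-type pups, against 941, 984 and 470 in mutant pups. Mutant replicate 3 was the low one, and without it the log2 fold change of -0.25 was 0.00. Ube2w, which attaches ubiquitin to N-termini, was at 44.5 ± 6.01 and 44.9 ± 6.92 CPM (SD, n = 3 each).

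Ube2v1 was the member with the second largest change, and its direction changed when the genes that overlap it were added. Ube2v1 and Ube2v2 are E2-like proteins without the catalytic cysteine that join the true E2 Ube2n to build K63-linked chains, which act in signalling and DNA repair. Ube2v1 (chromosome 2, 167607638 to 167632095, GRCm38) had 165, 279 and 810 counts in wild-type pups, against 1166, 883 and 1653 in mutant pups. Its mean was 21.5 ± 19.2 CPM in wild-type cortex, against 62.3 ± 21.1 CPM in mutant cortex (SD, n = 3 each). The genotypes did not overlap, but wild-type replicate 3 lay nearer the mutants than the other wild types. The difference did not pass the threshold (log2 fold change 1.54, SE 0.71, edgeR adjusted p = 0.9996), and leaving out wild-type replicate 3 raised it to 2.57 (edgeR adjusted p = 0.155).

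Gm20431 is annotated in GENCODE M21 as a read-through transcript that joins the upstream gene Tmem189 to Ube2v1 on the same strand. It shares 1673 of its 2367 exon bases with Ube2v1. Gm20431 had 1549, 1412 and 794 counts in wild-type pups, against 0, 239 and 0 in mutant pups, high in the libraries where Ube2v1 was low. Of the reads given to either gene, Ube2v1 took 9.63% (95% exact binomial interval 8.27% to 11.1%), 16.5% (14.8% to 18.4%) and 50.5% (48.02% to 52.97%) in the wild types. In the mutants it took 100% (99.7% to 100%), 78.7% (76.2% to 81.1%) and 100% (99.8% to 100%).

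Summed with its overlapping genes, Ube2v1 went the other way, with a log2 fold change of -0.32 (SE 0.17, edgeR adjusted p = 0.9996). This sum was chosen after seeing the data. It stood at 87.3, 75.9 and 86.2 CPM in wild-type pups, against 54.6, 58.7 and 86.2 CPM in mutant pups. Mutant replicate 3 matched the wild types, and the genotypes overlapped. Tmem189, which shares 694 exon bases with Gm20431 and none with Ube2v1, had 566, 623 and 482 counts in wild-type pups, against 634, 509 and 507 in mutant pups.

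**Figure D2:**
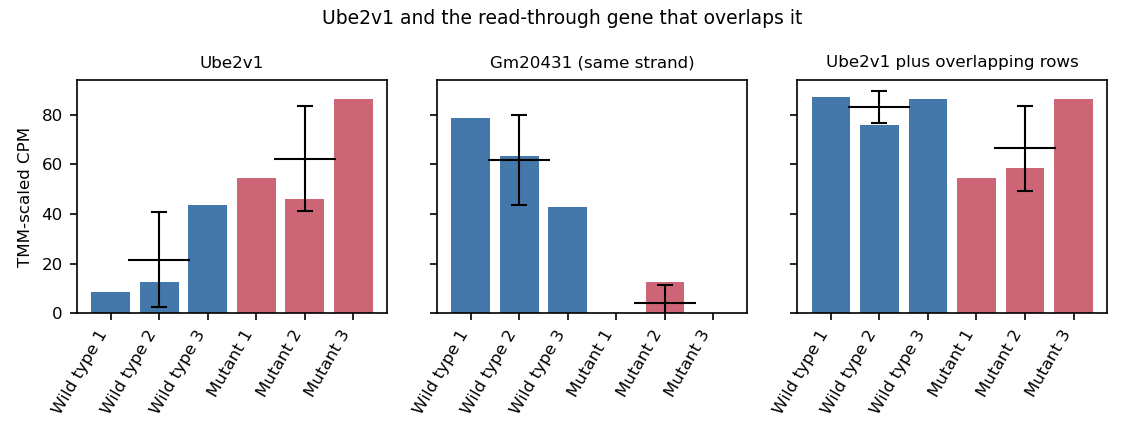
Depth-scaled level (CPM, y axis) in each library (x axis, blue wild type, red mutant) of Ube2v1, of the read-through gene Gm20431 on the same strand, and of Ube2v1 with its overlapping genes added. Black marks are the mean and SD of 3 libraries; Gm20431 is at 0 CPM in mutant replicates 1 and 3, and the sum is 54.6 to 87.3 CPM over all 6 libraries.

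Ube2v2 was the least even member within a genotype. It had 657, 236 and 180 counts in wild-type pups, against 115, 574 and 650 in mutant pups, with high and low libraries in both genotypes. Its log2 fold change was 0.37 with an SE of 0.86, and no other gene of the table overlaps it. With 1 library left out its log2 fold change ran from -0.02 to 1.19, the highest being without wild-type replicate 1. Ube2n, the catalytic partner of both, was steady at 127 ± 11.9 CPM in wild-type cortex, against 121 ± 7.89 CPM in mutant cortex (SD, n = 3 each; log2 fold change -0.06, SE 0.11).

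Ube2n also has copies in the table, shown here because identical sequence cannot be told apart by reads that lie within it. Bases 34 to 123 of the Ube2n coding sequence, read from the GENCODE M21 transcripts of GRCm38, are set against both copies. This window of 90 bases was chosen because Ube2nl differs most from Ube2n there, at 5 bases. Capitals mark bases that differ from Ube2n. In that annotation Ube2n is at chr10:95515145-95545657 (plus strand), Ube2n-ps1 at chr5:76232612-76233070 (minus strand, within Clock) and Ube2nl at chr7:61549246-61549701 (minus strand).
Ube2n: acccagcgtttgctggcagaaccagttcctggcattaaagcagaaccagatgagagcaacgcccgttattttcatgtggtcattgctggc
Ube2n-ps1: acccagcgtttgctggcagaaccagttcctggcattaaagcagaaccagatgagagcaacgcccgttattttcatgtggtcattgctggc
Ube2nl: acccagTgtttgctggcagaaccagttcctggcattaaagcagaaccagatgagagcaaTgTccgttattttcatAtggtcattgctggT
Over the whole coding sequence, Ube2n-ps1 matched Ube2n at 456 of 456 bases and Ube2nl at 442. Ube2n-ps1 was given 723 to 1074 counts in each library, and Ube2nl 0 to 6. Of the reads given to Ube2n or Ube2n-ps1, the pseudogene took 28.6%, 27.3% and 22.0% in wild-type pups, against 27.6%, 30.3% and 26.2% in mutant pups, with 95% exact binomial bounds from 20.6% to 23.4% in wild-type replicate 3 and from 28.7% to 31.9% in mutant replicate 2, the lowest and highest shares. Its log2 fold change was 0.09 (SE 0.12). How reads that map to both were treated is not given in the sources used here.

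No E2 of K48-linked chains, the chains that mark proteins for the proteasome, passed the threshold. Ube2k, which extends K48 chains, was at 133 ± 19.0 and 121 ± 15.9 CPM in wild type and mutant (SD, n = 3 each; log2 fold change -0.14, SE 0.14). Ube2r2, a partner of the cullin-based SCF ligases, gave -0.02, and Ube2g1 gave -0.14. The E2s of endoplasmic reticulum quality control moved as little: Ube2j1 gave -0.02, Ube2j2 0.02 and Ube2g2 -0.10. Ube2j1 was among the steadiest members, between 99.8 and 110 CPM in the 6 libraries.

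The E2s of ubiquitin-like proteins held no called member. The NEDD8 enzymes Ube2m and Ube2f gave -0.23 (SE 0.15) and -0.34 (SE 0.17). Ube2f had 19.3, 18.9 and 24.0 CPM in wild-type pups, against 17.9, 17.9 and 13.3 CPM in mutant pups. Every mutant was below every wild type, by a margin smaller than the spread within either genotype (edgeR adjusted p = 0.9996). Ube2l6, the ISG15 enzyme and closest relative of Ube2l3, had only 17 to 36 counts in each library (log2 fold change 0.33, SE 0.34).

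The cell cycle E2s were low to moderate and did not separate the genotypes. Ube2c, which starts ubiquitin chains for the anaphase-promoting complex, had 123, 137 and 136 counts in wild-type pups, against 165, 138 and 112 in mutant pups (log2 fold change 0.08, SE 0.20). Ube2s, which extends those chains, gave -0.04 (SE 0.14). Ube2t, the Fanconi anaemia E2, had only 23 to 54 counts in each library. The summed level of 5 proliferation markers was 84.8 to 116 CPM in wild-type cortex, against 94.3 to 117 CPM in mutant cortex. The Rad6 homologues Ube2a and Ube2b, which act in DNA damage tolerance and histone ubiquitylation, gave 0.11 (SE 0.22) and -0.03 (SE 0.12). Ube2a is on the X chromosome, and its genotypes overlapped, at 17.2 to 30.2 CPM in wild-type cortex, against 22.1 to 31.7 CPM in mutant cortex.

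Among the remaining members, Ube2h, an E2 of the CTLH ligase, had 104, 101 and 107 CPM in wild-type pups, against 115, 113 and 112 CPM in mutant pups. Every mutant was above every wild type, at a log2 fold change of 0.12 (SE 0.09, edgeR adjusted p = 0.9996). Ube2q1 had 107, 107 and 107 CPM in wild-type pups, against 98.9, 99.9 and 99.3 CPM in mutant pups. Its SD within genotype was the lowest of all 16274 genes tested, and its groups did not overlap, yet the log2 fold change of -0.11 (SE 0.09) did not pass the test, which draws its spread from all genes. Ube2cbp had 66, 73 and 54 counts in wild-type pups, against 54, 48 and 39 in mutant pups. Once scaled for depth its mutants were all lower, with a log2 fold change of -0.43 (SE 0.25, edgeR adjusted p = 0.9996). Ube2q2 gave 0.21 and Ube2o, a large enzyme that acts as E2 and E3 at once, gave -0.13. Ube2z, which takes ubiquitin from the E1 Uba6, gave 0.00.

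Of the 38 members, 14 overlap another gene of the table and 8 share exon bases with it, Ube2l3 and Ube2v1 among them. The pseudogene Ube2d-ps had 262, 242 and 187 counts in wild-type pups, against 256, 144 and 292 in mutant pups (log2 fold change 0.02, SE 0.26). It shares 112 exon bases with Urgcp on the opposite strand, whose count was 223 in mutant replicate 2 but 707 to 949 elsewhere. Both genes were lowest in that mutant library. Ube2s shares 183 exon bases with the ribosomal protein gene Rpl28, whose count was 51 in the same library but 174 to 325 elsewhere, while Ube2s had 649 to 996 counts in every library.

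Across the 35 members tested, 19 had log2 fold changes below 0, or 54.3%, against 51.3% of all genes. The median was -0.02 over members and -0.01 over all genes. The median absolute change was 0.10 over members and 0.12 over all genes, and 33 of 35 were under 0.5. At an unadjusted p under 0.05 there was 1 member (2.86%), against 3.45% of all genes. Genotypes did not overlap in 7 members, 20% of those tested, against 7.93% of all genes. The 4 lower in the mutant were Ube2l3, Ube2f, Ube2cbp and Ube2q1, 11.4% of members against 3.75% of all genes. The 3 higher were Ube2v1, Ube2h and Ube2d1, 8.57% of members against 4.18% of all genes.

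**Figure D3:**
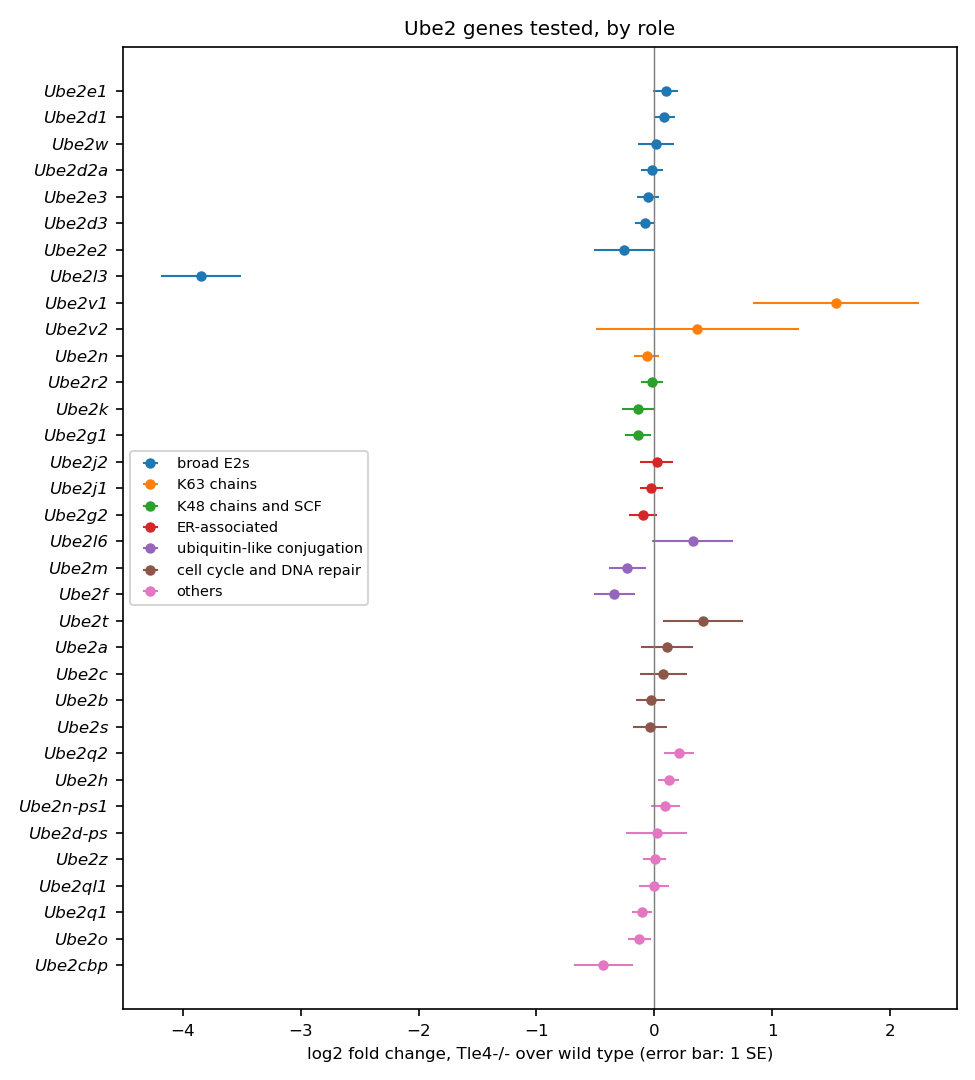
Log2 fold change of mutant over wild type (x axis) with 1 SE, for 34 of the 35 Ube2 genes tested (y axis), coloured by role. Ube2l3 stands at -3.85 and Ube2v1 at 1.54, and the others shown lie within 0.5 of 0.

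The members together took 0.316%, 0.308% and 0.314% of all counts in wild-type pups, against 0.297%, 0.304% and 0.300% in mutant pups. The mutants were all lower. Without Ube2l3 the shares were 0.312%, 0.299% and 0.309% in wild-type pups, against 0.296%, 0.303% and 0.300% in mutant pups, and the genotypes overlapped.

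Most members were even between libraries. The highest library was less than 1.5 times the lowest in 25 of 35, and the median ratio was 1.32. The median SD within genotype, on log2(CPM + 1), was 0.15 for members and 0.19 for all genes tested. Ube2v2, Ube2v1, Ube2l3 and Ube2e2 were above the 90th percentile of all genes on this measure, at 99.6, 99.0, 93.4 and 91.8.

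**Figure D4:**
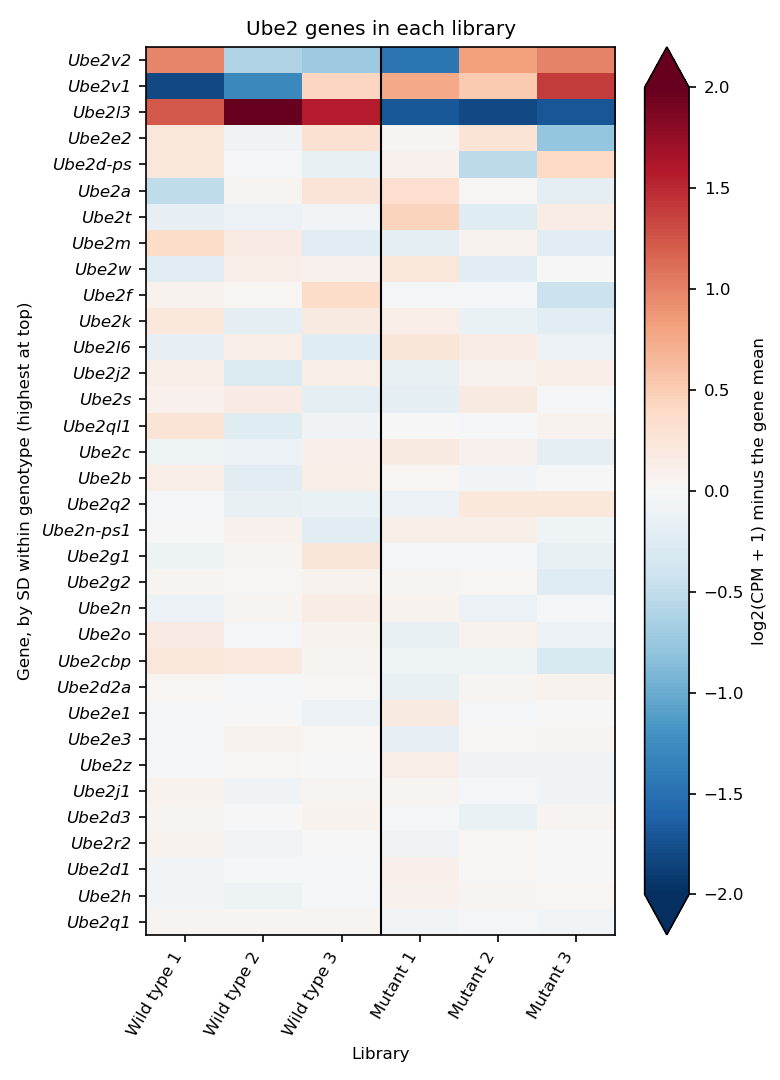
Deviation of log2(CPM + 1) from each gene's mean over 6 libraries (colour) for 34 of the 35 Ube2 genes tested (rows, by SD within genotype) in each library (columns). Ube2v2, Ube2v1 and Ube2l3 at the top carry the strong colours, and only Ube2l3 and Ube2v1 of these keep the genotypes apart.

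Levels between genes were compared per length, on the authors' FPKM. Ube2ql1, a relative of the Ube2q enzymes, was the highest member at 138 ± 14.5 FPKM (SD over 6 libraries), from 121 to 164. Ube2n-ps1 followed at 99.5 ± 9.63 FPKM on a pseudogene of 459 bases. Below these came Ube2d2a at 39.4 ± 2.16, Ube2o at 35.8 ± 2.88, Ube2n at 32.2 ± 2.74 and Ube2j1 at 28.6 ± 1.05 FPKM. The last of these lay within 1 SD of Ube2z (28.1 ± 1.74) and Ube2d1 (27.9 ± 1.19). At the other end, Ube2l6 and Ube2t were at 0.388 and 0.292 FPKM, and Ube2nl, Ube2d2b and Ube2u at 0.163 or less. Ube2l3 was at 6.84 FPKM in the wild type and 0.466 FPKM in the mutant by the authors' means.

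This order depends on the gene length used. The FPKM equal depth-scaled counts divided by a fixed length per gene, which was above the length of annotated exons in 29 of the 35 members tested. For Ube2d3 the authors' length was 35262 bases and the merged annotated exons 24499. Ube2d3 thus stood at 6.96 FPKM, although its 246 CPM made it the second most counted member after Ube2ql1 at 372 CPM. Per kilobase of annotated exon, Ube2ql1 (139 CPM) and Ube2n-ps1 (99.5 CPM) kept ranks 1 and 2. Ube2m moved from rank 13 to 4 and Ube2d2a from rank 3 to 20. These ranks are of means over both genotypes, which for Ube2l3, with levels so far apart, describe neither.

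**Figure D5:**
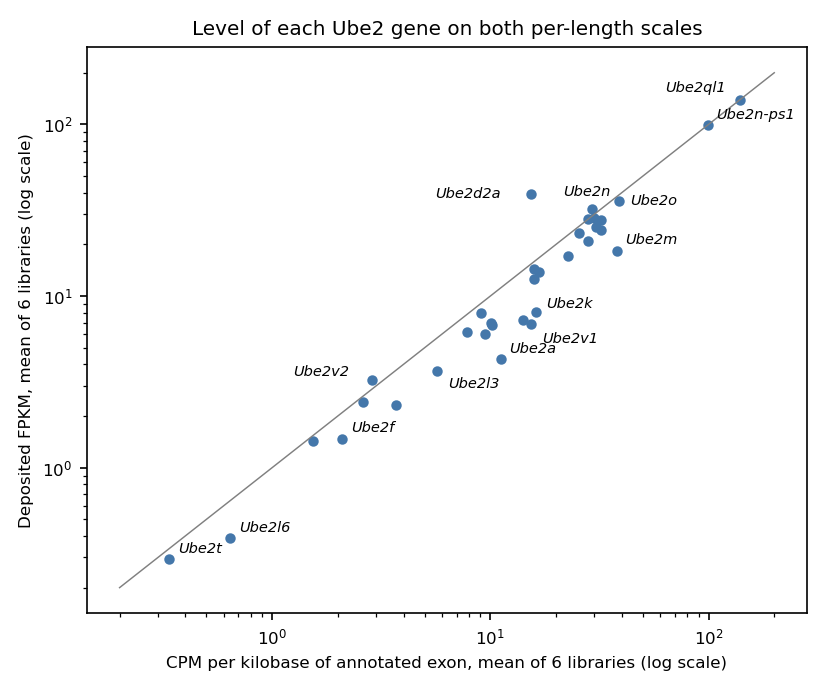
Mean level of Ube2 genes over 6 libraries as deposited FPKM (y axis, log scale) against CPM per kilobase of annotated exon (x axis, log scale), with the line of equal values. Genes at 0.2 FPKM or less and 1 further gene are left out; Ube2ql1 and Ube2n-ps1 are highest on both axes, and Ube2d2a lies above the line, with annotated exons longer than the authors' length.

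Other genes of the pathway were taken from 4 lists, none of them of the classical RING ligases, and no listed gene tested passed the edgeR threshold, which 0.111% of all genes passed. Of 9 E1 genes, 1 had an unadjusted p under 0.05, against 3.45% of all genes, and a list this short says little about the group. That gene was Atg7, the E1 of autophagy, at 21.5 ± 3.19 CPM in wild-type cortex, against 29.0 ± 0.592 CPM in mutant cortex (SD, n = 3 each; log2 fold change 0.43, SE 0.14, edgeR adjusted p = 0.9996). Uba1, the main ubiquitin E1, encoded on the X chromosome, was at 882 ± 92.6 and 913 ± 35.4 CPM and gave 0.05. Uba2 gave -0.16 and Sae1, its SUMO partner, 0.13.

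Of 11 genes for ubiquitin and its relatives, 10 were tested and 0 passed the threshold or an unadjusted p under 0.05. Ubb, a polyubiquitin gene, had 112, 196 and 189 CPM in wild-type pups, against 211, 218 and 211 CPM in mutant pups (log2 fold change 0.36, SE 0.19). Its mutants were all above the wild types, among which replicate 1 was low.

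Of 9 listed genes that share the E2 fold or role without a Ube2 name, 8 were tested and 0 passed the threshold or an unadjusted p under 0.05 by edgeR. Cdc34, the first known SCF partner, gave -0.25 (SE 0.14) and Ufc1, the UFM1 enzyme, -0.21 (SE 0.12). None of the 30 RING-between-RING and HECT ligases tested, the class that Ube2l3 serves, passed the threshold or an unadjusted p under 0.05 in edgeR. Their median log2 fold change was -0.02, with 17 of 30 below 0. Arih1, a RING-between-RING ligase that works with Ube2l3 on cullins, gave a log2 fold change of -0.06 (SE 0.09). Park2, which encodes parkin, gave 0.04 and Ube3a 0.01. The smallest p-values belonged to Huwe1, Smurf1 and Arih2, with log2 fold changes of 0.14, -0.16 and -0.17. Huwe1 is on the X chromosome, and Xist level cannot be told apart from genotype in these libraries.

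In the authors' deposited table, Ube2l3 had an adjusted p of 9.03e-31, and Ube2v1, the next member, an adjusted p of 0.198. No other member had an unadjusted p under 0.05 there.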

How the data were processed

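The authors deposited 1 gene table for the 6 libraries. Per the file headers it gives, for each gene and library, a whole-number count and an FPKM, and also mean FPKM and the p-value and q-value of the authors' own comparison. HISAT2 2.0.4, StringTie, edgeR, GRCm38.p4 and mm10 are listed per the submitters' processing notes. No source used here gives the counting program, annotation release or strand setting.

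The deposited counts went into edgeR 4.0.16 (R 4.3.3) with filterByExpr, TMM scaling and a robust quasi-likelihood fit on genotype. Tests were 2-sided, adjusted by Benjamini-Hochberg over 16274 genes, with a threshold of 0.05. Each SE was derived from the log2 fold change and the square root of F. CPM are TMM-scaled. The deposited FPKM served for levels between genes and for limma 3.58.1 on log2(FPKM + 0.1) and log2(FPKM + 1). DESeq2 1.42.0, limma-voom, other scalings and filters, a replicate block and leaving out libraries were also run. On simulated counts for this comparison (16274 genes, 200 changed), 190 genes were called, 4 of them falsely, and 86% of 2-fold and 100% of 4-fold changes were recovered. The simulated spread was a set function of the mean count and was not taken from these libraries. These shares therefore check that the code runs as meant and do not give the power for the genes reported here.

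All 38 members matched GENCODE M21 by gene ID, 33 with start and end within 1 base. Members and lists were chosen with earlier results of these data known. Members with genotypes that did not overlap, or with an unadjusted p under 0.05, were given in every library, as were genes overlapping Ube2l3; others were named by role, size of change and level, and pathway genes by smallest p. Ube2v2, Ube2e2, Ube2c, Ube2d-ps, Gm20431, Tmem189, Urgcp, Rpl28, Ypel1, Uba1, Arih1, Park2 and Ube3a were added after their values were seen. Results for some genes are not reported here, and 1 member is left out of the plots; counts and medians over the members and lists include them.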

Additional observations from a re-analysis of the deposited data

How the results depend on the processing

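Ube2l3 was lower in the mutant under every alternative run, and passed the adjusted threshold in all of those that kept the 6 libraries and its own gene row (log2 fold changes -3.87 to -2.34, adjusted p 5.24e-37 to 0.0329). It did not pass when summed with its overlapping genes (-1.18). Leaving out 1 library gave -4.08 to -3.41, with adjusted p of 0.000122 to 0.150. The count of members that differed was 1 in each count-based fit of 6 libraries and 0 to 1 with a library left out. The fits on FPKM were read for Ube2l3 only. The median over members ran from -0.05 to -0.01 with a library left out. The genes that differed in all numbered 58 by the DESeq2 Wald test, 9 with a replicate block and 8 to 19 with a library left out. Deviations of same-numbered libraries from their genotype means correlated at -0.06, 0.10 and -0.02 over genes, against -0.09 to 0.10 for the other pairs. The deviations within a genotype must sum to 0, so these values cannot tell whether replicate numbers pair the libraries. With the replicate block Ube2l3 stood at -3.75 (edgeR adjusted p = 0.0136), and no call on a member changed. Ube2v1 turned from 1.54 to -0.32 when summed with its overlapping genes, an alternative added after seeing the data; the sum then counts reads that the table divides between Ube2v1 and Gm20431. Of 476 values of the 34 other members under count-based alternatives, 0 passed the threshold. Apart from that reversal of Ube2v1, 2 moved by over 1 SE (Ube2v1 to 2.57 without wild-type replicate 3 and Ube2ql1 to 0.16 without wild-type replicate 1). Changes of sign within 1 SE were not counted as reversals and occurred in several members near 0. With a library left out, for example, Ube2a ran from -0.09 to 0.28 and Ube2d-ps from -0.23 to 0.25. Where a call was lost or a count moved, the cause was not tested. Depth limits the members with few counts most: Ube2t, Ube2l6, Ube2cbp and the 3 left untested.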
